A study of Mus musculus with 8 samples.

Results

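Nuclear genes for subunits of oxidative phosphorylation were followed across rib chondrocytes, the cells that make cartilage, of control and Hoxc8 transgenic mouse embryos. The group held 45 genes of the 18193 genes that had a probe set with a single symbol on the array. They were 22 genes of complex I, 4 of complex II, 6 of complex III, 9 of complex IV, 3 of complex V and Cycs, which encodes cytochrome c. Where a gene had several probe sets, the brightest on average over the 8 arrays stood for it. All 45 genes had such a probe set and all 45 passed the filter on low signals.

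Embryos of the FVB strain were taken from 4 litters at stage E18.5, and each litter gave 1 control array, labelled wild type, and 1 transgenic array that carried a Hoxc8 transgene. Cells were freed from rib cages with collagenase and trypsin, strained and stored for extraction of total RNA, so the samples were bulk preparations with no sorting step in the labels. The promoter of the transgene, the number of embryos in a sample and their sex are not given in the labels. Litters are numbered 1 to 4 here and carry the replicate numbers of the labels.

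Oxidative phosphorylation takes place in the inner mitochondrial membrane. Complexes I and II pass electrons from NADH and succinate to ubiquinone, complex III passes them on to cytochrome c, and complex IV passes them to oxygen. Complexes I, III and IV pump protons, and complex V, the ATP synthase, uses the proton gradient to make ATP. Most subunits are encoded in the nucleus, and a few core subunits in mitochondrial DNA. Growth plate cartilage has no blood vessels, and its chondrocytes are known to rely heavily on glycolysis.

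Values are MAS5 signals on a linear scale, and differences are on the scale of log2(signal + 22.2), which understates the change of dim genes. Signals of different probe sets cannot be set against each other as levels of transcript, so every comparison below is of 1 probe set between arrays. The median signal of an array was between 106 and 121. Hoxc8 itself gave 3519 ± 501 (SD, n = 4) in control and 3885 ± 369 (SD, n = 4) in transgenic samples, a difference of 0.15 log2 with an adjusted p of 0.9999 in limma. The Hoxc8 probe set therefore did not separate the genotypes, and the genotype is taken from the labels alone. All 15 chondrocyte markers passed the filter, with mean signals of at least 3906. Perichondrium and fibroblast markers were present as well: 9 of 10 passed, with mean signals between 1830 and 37757 and a summed signal between 146238 and 188640 on the arrays, and these genes are not limited to 1 cell type. The precision of every value is limited by the number of arrays, and since the number of embryos in a sample is not given, p-values measure the spread between these samples.

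No subunit gene differed between transgenic and control samples past the threshold. The differences of the 45 genes lay between -0.15 log2 (Cox7a1) and 0.13 log2 (Ndufa10), with 24 genes higher and 21 lower in transgenic samples. Their median was 0.0025 log2, beside 0.0015 log2 over the 10989 genes tested. The 95% intervals of 44 of the 45 genes lay within a change of 1.5-fold in either direction, and all 45 lay within 2-fold. The split of signs was set by single arrays: 37 genes were higher without control litter 4, 38 without transgenic litter 2 and 7 without transgenic litter 4. With log2 values centred on each array's median, 31 of 45 were higher.

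The test behind this was limma on all 8 arrays with Benjamini-Hochberg adjustment at 0.05 over 22519 probe sets. It called 0 probe sets (0%), with 246 at an unadjusted p under 0.05, and adding the litter as a block left 0 called as well, with 752 unadjusted. Of the subunit genes, 0 had an unadjusted p under 0.05 in either limma fit. The smallest unadjusted p was 0.178 without and 0.0836 with the litter as a block, both for Sdha. Intervals and SEs of genotype differences are given from the fit without the litter. With the litter as a block the SEs were smaller, such as 0.07 against 0.15 log2 for Cox6c and 0.23 against 0.29 log2 for Cox7a1.

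Within complex I, Ndufa10, an accessory subunit, had the largest positive difference. Its signals were 3408, 2921, 3024 and 3163 in control litters 1 to 4 and 3563, 3162, 3222 and 3772 in transgenic litters 1 to 4. The transgenic array was the higher in each of the 4 litters, but the groups overlapped, and the difference of 0.13 log2 (SE 0.10) had an adjusted p of 0.9999 in limma. Ndufs8, a core subunit that holds iron-sulphur clusters, had the most negative difference of complex I, -0.09 log2 (SE 0.12, adjusted p = 0.9999 in limma). Its signals were 8653, 6780, 8220 and 10116 in control litters 1 to 4 and 6745, 8266, 8038 and 8483 in transgenic litters 1 to 4. The lowest value was transgenic and the highest control, the groups overlapped, and the within-litter differences ran from -0.36 to 0.29 log2.

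Sdha, the flavoprotein of complex II that oxidises succinate, gave 3858, 3795, 3772 and 3825 in control litters 1 to 4 and 3622, 3875, 3304 and 3048 in transgenic litters 1 to 4. The control values were close together, at 3812 ± 37.5 (SD, n = 4), while the transgenic values spread over 3462 ± 362 (SD, n = 4), and the highest value of all was transgenic. The difference was -0.14 log2 (SE 0.10). Among the genes of complex III, Uqcrc2, a core protein of the complex, was at -0.09 log2 (SE 0.12). Its signals were 5588, 4299, 4375 and 5126 in control litters 1 to 4 and 4866, 4005, 4203 and 5125 in transgenic litters 1 to 4, so the control array was the higher in every litter, with nearly equal values in litter 4.

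Uqcrq, a small subunit of complex III, had the most positive difference of that complex, 0.10 log2 (SE 0.17). Sdhb had the most positive difference of complex II, 0.01 log2 (SE 0.19), and Cycs differed by 0.00096 log2 (SE 0.11). In complex IV the extremes were Cox6a2 at 0.05 log2 (SE 0.22) and Cox7a1 at -0.15 log2 (SE 0.29), which are muscle isoforms and had low signals on these arrays. All 3 genes of complex V had small negative differences. The most negative was Atp5a1, the alpha subunit of the ATP synthase head, at -0.04 log2 (SE 0.09), with 10658, 10587, 10448 and 11382 in control litters 1 to 4 and 11647, 10021, 10592 and 9612 in transgenic litters 1 to 4. Litters 1 and 4 differed in opposite directions for this gene.

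**Figure D1:**
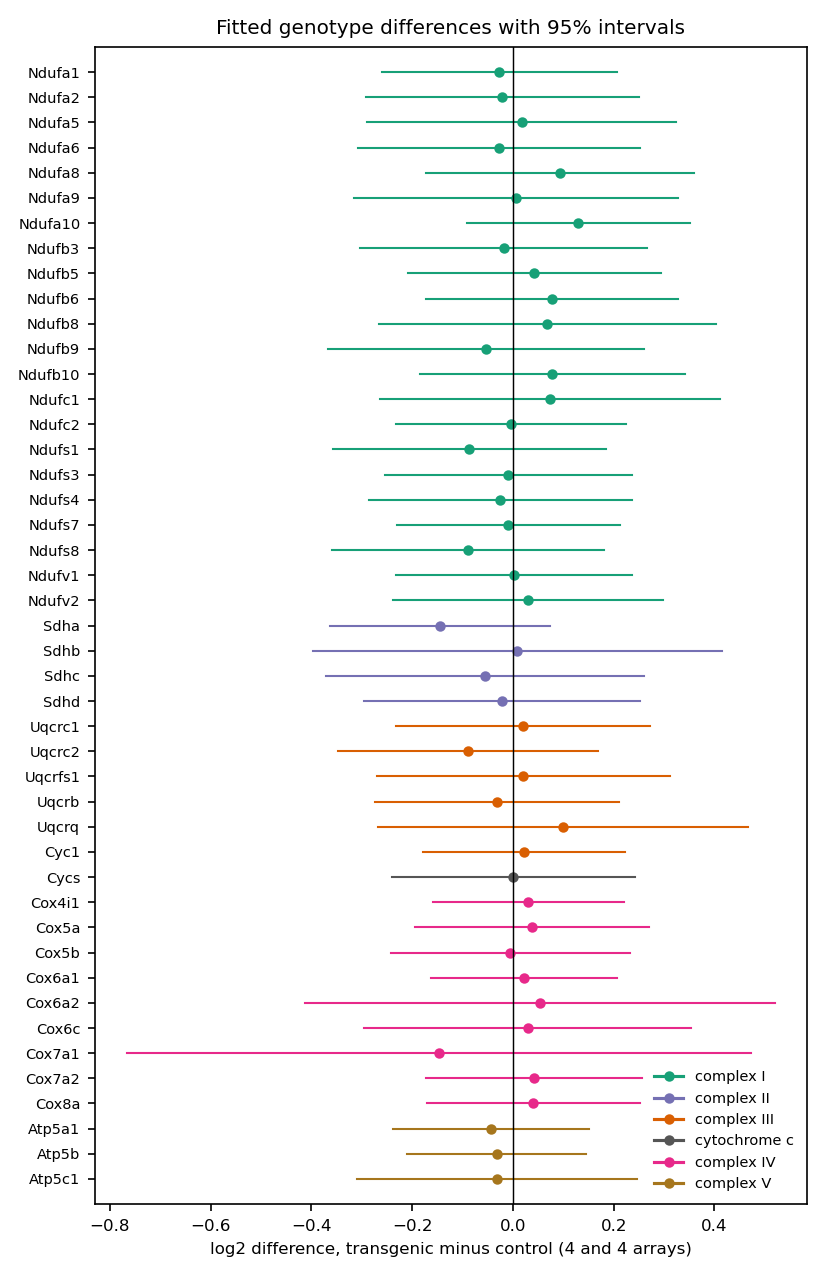
Fitted differences between transgenic and control samples (4 and 4 arrays) on a log2 scale for the 45 genes, with colours for the complexes. The 95% intervals are from limma without the litter in the fit. Every interval crosses 0, and the widest is that of Cox7a1, from -0.77 to 0.47.

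Inside litters the sign of the difference changed from litter to litter. In litter 1 the transgenic array was higher for 24 of 45 genes, with a median of 0.01 log2. In litter 2 it was higher for 13 genes, with a median of -0.09 log2, while litter 3 had 29 genes higher and a median of 0.08 log2. In litter 4 it was higher for 25 genes, with a median of 0.02 log2. Over all genes tested the within-litter medians lay between -0.03 and 0.03 log2. Only 5 subunit genes had the same sign in all 4 litters: Ndufa8, Ndufa10 and Ndufb5 were higher in transgenic samples, and Ndufs4 and Uqcrc2 lower. Among all genes tested 10.7% had the same sign in all 4 litters, so 5 of 45 is close to that share.

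Differences between litters were shared by many of the genes. The mean of litter 4 was the highest of the 4 litter means for 34 of 45 subunit genes, where 32.2% of all genes tested were highest in litter 4. Litter 2 was the lowest for 33 of 45, where 32.2% of all genes were. Both arrays of litter 4 lay above the other 6 arrays for 26 of 45 genes (57.8%), where 13.2% of all genes did. The median deviation of the 45 genes from their own means was 0.15 log2 on the control and 0.21 log2 on the transgenic array of litter 4. It was -0.12 and -0.17 log2 on the arrays of litter 2, -0.09 and -0.02 log2 on those of litter 3, and 0.01 and 0.00 log2 on those of litter 1. In complex IV, 7 and 9 of 9 genes were above their own mean on the control and transgenic arrays of litter 4, and 5 and 0 on those of litter 2. In complex III, 6 and 3 of 6 genes were above it on the arrays of litter 4, and 1 and 0 on those of litter 2.

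**Figure D2:**
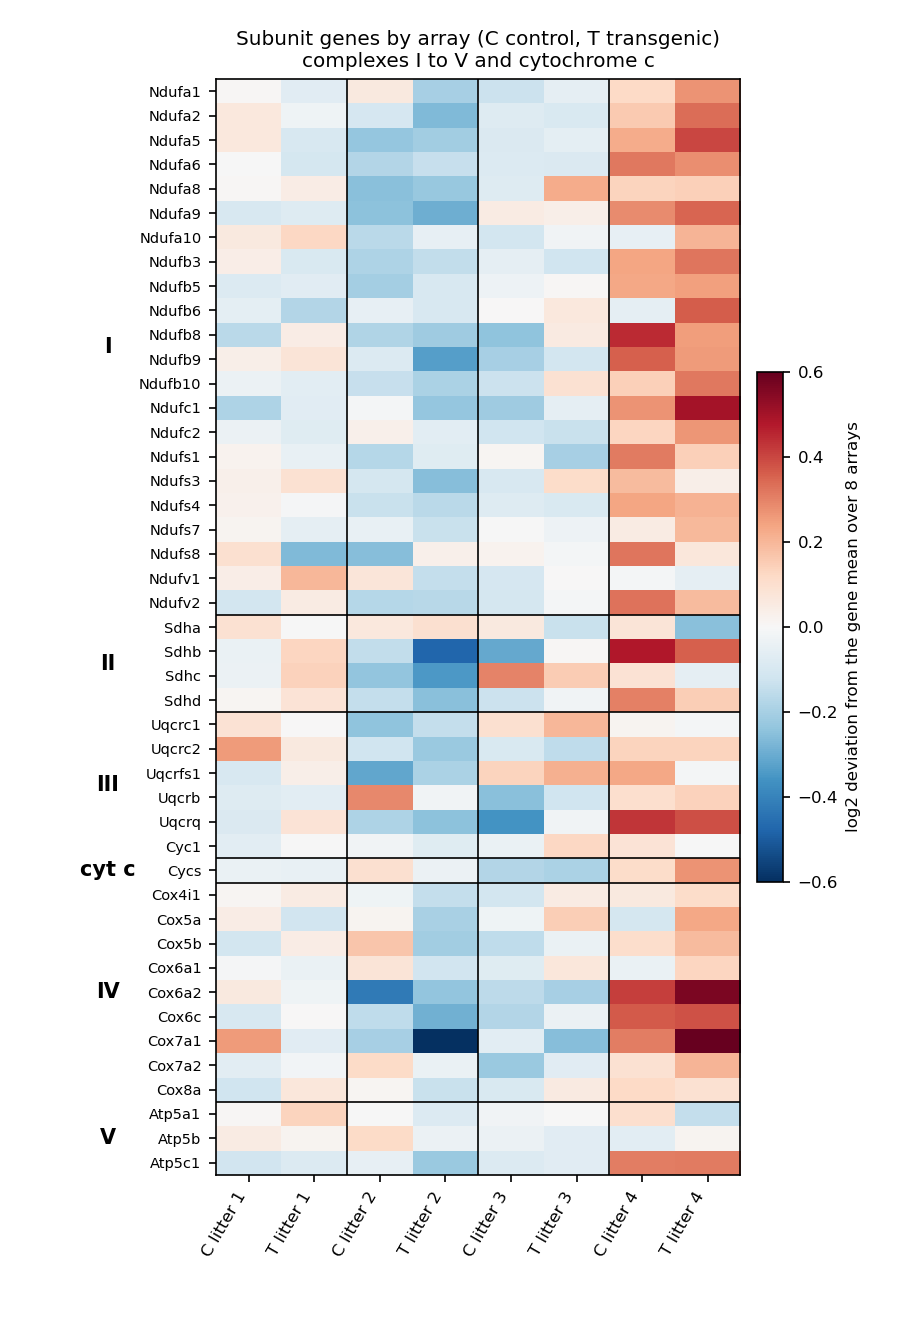
Log2 deviation of each of the 45 genes from its own mean over 8 arrays, with genes in rows by complex and the control (C) and transgenic (T) array of each litter in columns. In complex I, 19 and 21 of 22 genes are red on the control and transgenic arrays of litter 4 and 3 and 1 on those of litter 2.

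The litters were tested by a moderated F-test in limma that also held the genotype, with 2 arrays per litter. It called 2027 of 22519 probe sets (9.00%), and 15.0% of the 11260 brightest probe sets, those whose mean reached 492. Of the 45 subunit genes it called 9: Ndufa5, Ndufa6, Ndufa9, Ndufb9 and Ndufc1 of complex I, Sdhb, Uqcrq, Cox6c and Atp5c1. All 9 were highest in litter 4. The count rests on the test's settings and on litter 4: limma without the intensity trend called 0 of 22519 probe sets and 0 of the 45 genes, with 4915 and 13 at an unadjusted p under 0.05. Leaving out litter 4 also left 0 of the 45 called in limma, where 1118 probe sets were still called. Without litter 1 it called 17 of the 45 genes and without litter 2 it called 3, and leaving out any single array of litters 2, 3 or 4 gave 4 or 5. Ndufb8 (adjusted p = 0.0504) and Cox6a2 (adjusted p = 0.05003) lay just outside the threshold in limma.

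In complex I, 20 of 22 genes were highest in litter 4 and 17 were lowest in litter 2. Ndufa9, an accessory subunit next to the quinone site, gave 2757, 2488, 3052 and 3599 in control litters 1 to 4 and 2796, 2406, 3029 and 3762 in transgenic litters 1 to 4. The litter mates were close to each other, and the mean of litter 4 was 1.5-fold that of litter 2 (adjusted p = 0.0156 in limma). Ndufa6, which binds the acyl carrier protein, gave 5269, 4662, 4973 and 6563 in control litters 1 to 4 and 4903, 4784, 4958 and 6396 in transgenic litters 1 to 4. Both arrays of litter 4 stood above the other 6, which lay between 4662 and 5269, and the ratio of the highest to the lowest litter was 1.37 (adjusted p = 0.0280 in limma).

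Ndufa5, an accessory subunit of the matrix arm, gave 4777, 3893, 4301 and 5344 in control litters 1 to 4 and 4273, 3957, 4386 and 6055 in transgenic litters 1 to 4. Litter 4 was 1.45-fold above litter 2 (adjusted p = 0.0296 in limma). Ndufb9, a subunit of the membrane arm, gave 5724, 5275, 4862 and 7183 in control litters 1 to 4 and 5905, 4446, 5177 and 6673 in transgenic litters 1 to 4. Litter 4 was again above all other arrays, at 1.43-fold of litter 2 (adjusted p = 0.0254 in limma). Ndufc1, a small membrane subunit, gave 5325, 6006, 5219 and 7304 in control litters 1 to 4 and 5783, 5162, 5836 and 8591 in transgenic litters 1 to 4. Its lowest litter was litter 3, and litter 4 was 1.43-fold above it (adjusted p = 0.0245 in limma). Ndufa10 and Ndufv1 were the genes of complex I with the highest mean in litter 1. For Ndufv1 that holds for the brightest probe set only. Its dimmer tested probe sets were highest in litter 4 (adjusted p = 0.244 and 0.478 in limma).

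Complexes II and III were mixed. In complex II, 2 of 4 genes were highest in litter 4. Sdhb, the iron-sulphur subunit, gave 4080, 3776, 3380 and 5855 in control litters 1 to 4 and 4589, 3008, 4213 and 5372 in transgenic litters 1 to 4. It had the widest litter range of the 9 called genes, 1.66-fold between litters 4 and 2 (adjusted p = 0.0237 in limma), while Sdha was lowest in litter 4, with a range of 1.12-fold. In complex III, 1 of 6 genes was highest in litter 4 and 3 were highest in litter 3. That gene was Uqcrq, with 3349, 3121, 2772 and 4798 in control litters 1 to 4 and 3761, 2997, 3500 and 4654 in transgenic litters 1 to 4. Litter 4 was 1.54-fold above litter 2 (adjusted p = 0.0156 in limma). The count for complex III depends on the probe set used. The dimmer tested probe set of Uqcrb was highest in litter 4 (adjusted p = 0.0418 in limma), and so was that of Uqcrc2 (adjusted p = 0.247 in limma). The other genes of complex III had a single tested probe set.

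Cycs carries electrons from complex III to complex IV. It gave 11952, 13129, 10872 and 13255 in control litters 1 to 4 and 11899, 11990, 10741 and 14796 in transgenic litters 1 to 4. Both arrays of litter 4 were the highest, control litter 2 was close to the lower one, and the adjusted p of the litter test was 0.0846 in limma. In complex IV all 9 genes were highest in litter 4, and both arrays of litter 4 were above the rest for 5. The count of 9 holds for the brightest probe sets. A dimmer tested probe set of Cox5a was highest in litter 3 (adjusted p = 0.569 in limma), and so was that of Cox6c (adjusted p = 0.0797 in limma). In the brightest probe set of Cox5a litter 4 led the next litter by 0.0038 log2 only. Cox6c gave 10798, 10412, 10223 and 14900 in control litters 1 to 4 and 11561, 9463, 11278 and 15080 in transgenic litters 1 to 4. Its 6 arrays of litters 1 to 3 lay between 9463 and 11561, litter 4 was 1.51-fold above litter 2, and its adjusted p of 0.00965 in limma was the smallest of the 45 genes. Cox6a1, by contrast, had a range of 1.05-fold between litters (adjusted p = 0.936 in limma).

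In complex V, Atp5c1, the gamma subunit of the rotor shaft, gave 11682, 12210, 11954 and 15634 in control litters 1 to 4 and 11941, 10816, 12041 and 15717 in transgenic litters 1 to 4. Litter 4 was 1.36-fold above litter 2 (adjusted p = 0.0219 in limma). A dimmer probe set of Atp5c1, with a mean signal of 268, was lowest in litter 4 and had an adjusted p of 0.947 in limma, so the 2 probe sets of this gene disagree. Atp5a1 had a litter range of 1.08-fold and Atp5b, the catalytic beta subunit, one of 1.07-fold.

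**Figure D3:**
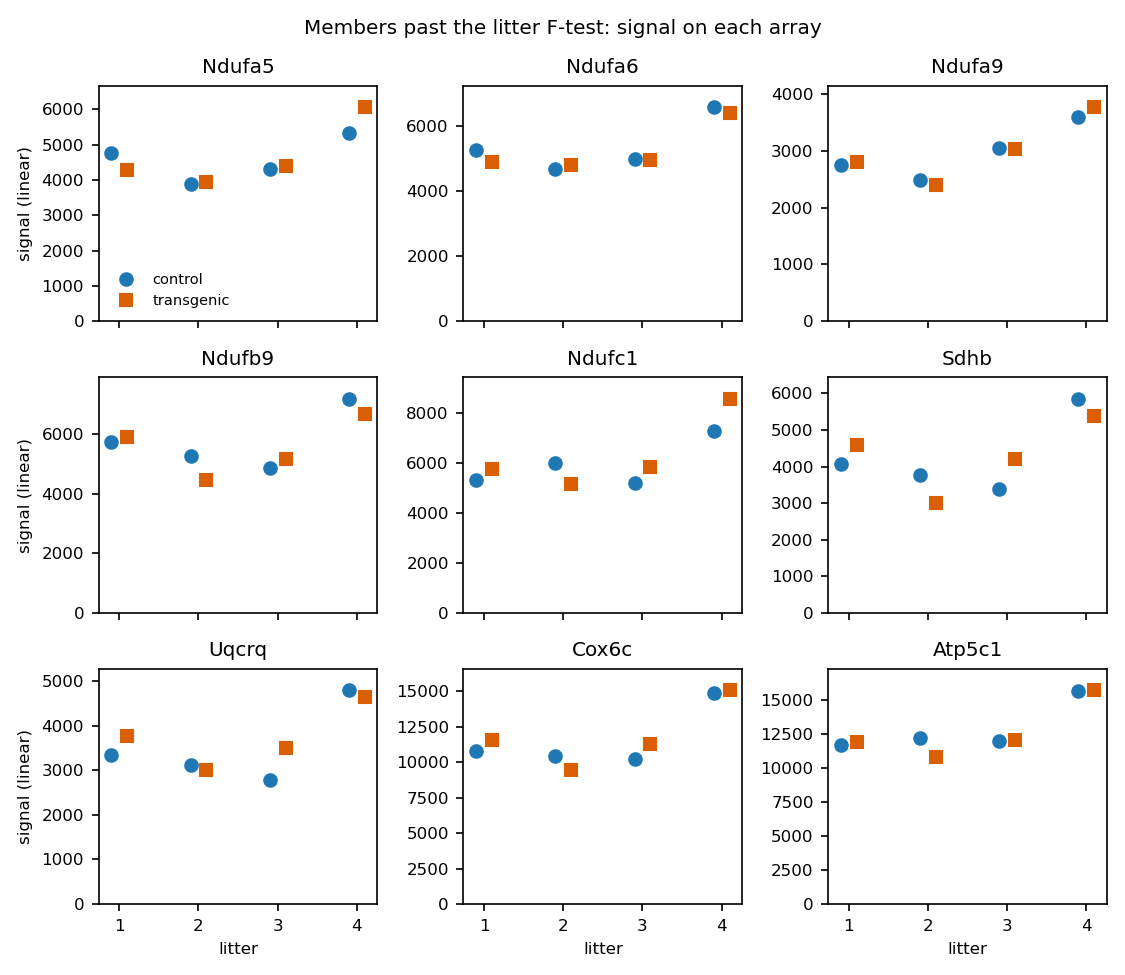
Linear signal of the 9 genes called by the litter test on each array, with litters on the x axis, circles for control and squares for transgenic samples. In every panel both arrays of litter 4 are above the other 6.

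Other properties of the arrays moved with the litters as well. The 5′ to 3′ signal ratio of the Gapdh control probe sets was 1.17 and 1.14 on the control and transgenic arrays of litter 4 and between 1.26 and 1.36 on the other 6 arrays. That of the beta-actin probe sets was 0.512 and 0.475 in litter 4 and between 0.590 and 0.647 elsewhere. Skeletal muscle markers were highest in litter 4 for 13 of 25 tested genes (52%) and lowest in litter 2 for 17 (68%), where 32.2% of all genes tested were in either case. Their summed signal was 66690 and 61270 on the control and transgenic arrays of litter 4, 60038 and 58245 in litter 1, 43594 and 44500 in litter 3, and 40822 and 37810 in litter 2. No muscle marker was at 0, and Mb was the 1 marker below the filter. Litter 1 was thus nearly as high as litter 4 in muscle markers, where the subunit genes of litter 1 were near their means. By genotype the muscle sums ranged from 40822 to 66690 in control and from 37810 to 61270 in transgenic samples. The part of the muscle markers and of the 5′ to 3′ ratios in the litter differences was not tested, and litters and any shared handling of litter mates cannot be told apart. In these bulk samples fewer cells of a type and less RNA per cell cannot be told apart either.

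Mylpf, a fast muscle myosin light chain, and Tnnc2, a fast muscle troponin, had the smallest litter p of the muscle markers. Mylpf gave 7341, 4455, 5287 and 9871 in control litters 1 to 4 and 6998, 3659, 5090 and 8835 in transgenic litters 1 to 4, a litter range of 2.31-fold (adjusted p = 0.000158 in limma). Tnnc2 had a range of 1.99-fold (adjusted p = 0.000257 in limma). By genotype, 0 of the 25 muscle markers were called, with 9 higher and 16 lower in transgenic samples. Myh3 at 0.56 log2 (SE 0.22) and Casq2 at 0.37 log2 (SE 0.18) had the smallest genotype p, with adjusted p of 0.9999 in limma. Both were dim, with mean signals of 190 and 302. Myh3 was highest in litter 3 and Casq2 in litter 4. Of the 15 chondrocyte markers, 2 were highest in litter 4 and 11 in litter 2, the litter in which most subunit genes were lowest. That rank of litter 2 depends on the scaling. The median deviation of the chondrocyte markers was 0.20 and 0.09 log2 on the control and transgenic arrays of litter 2. After quantile normalization it was 0.05 and -0.0020 log2 there, below 0.07 and 0.02 log2 in litter 1. The subunit genes stayed at -0.10 and -0.16 log2 in litter 2 after quantile normalization. Sox9, the transcription factor of the chondrocyte lineage, gave 5073, 5652, 3388 and 3035 in control litters 1 to 4 and 5467, 5132, 3665 and 3080 in transgenic litters 1 to 4 (adjusted p = 0.00101 in limma). Col11a2 was highest in litter 2 and lowest in litter 4 on the deposited scaling (adjusted p = 0.00628 in limma). By genotype, 0 of the 15 chondrocyte markers were called, with 6 higher and 9 lower in transgenic samples. Matn1 at -0.25 log2 (SE 0.14) and Col2a1 at -0.18 log2 (SE 0.13) had the smallest genotype p, with adjusted p of 0.9999 in limma. Of the 7 brown adipocyte markers with a probe set 4 were tested, 1 of them highest in litter 4 and 0 called, and the defining gene Ucp1 was below the filter, with signals between 2.39 and 9.02. Fabp4, which is not limited to brown fat, had a mean signal of 3698 and Prdm16 one of 299. Cidea gave 309 and 175 on the arrays of litter 2 and between 96.6 and 111 on the other 6 (adjusted p = 0.0884 in limma). Erythroid markers were highest in litter 4 for 1 of 4 tested genes, macrophage and osteoclast markers for 1 of 7, perichondrium and fibroblast markers for 1 of 9 and endothelial markers for 0 of 5. Litter 4 was the highest for 3536 of the 10989 genes tested. In the other direction, litter 4 was the lowest litter for 5 of 5 endothelial, 8 of 15 chondrocyte, 3 of 7 macrophage and osteoclast, 3 of 9 perichondrium and fibroblast and 0 of 4 erythroid markers, beside 3188 of the 10989 genes tested. The part of these markers in the litter differences of the subunit genes was not tested.

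**Figure D4:**
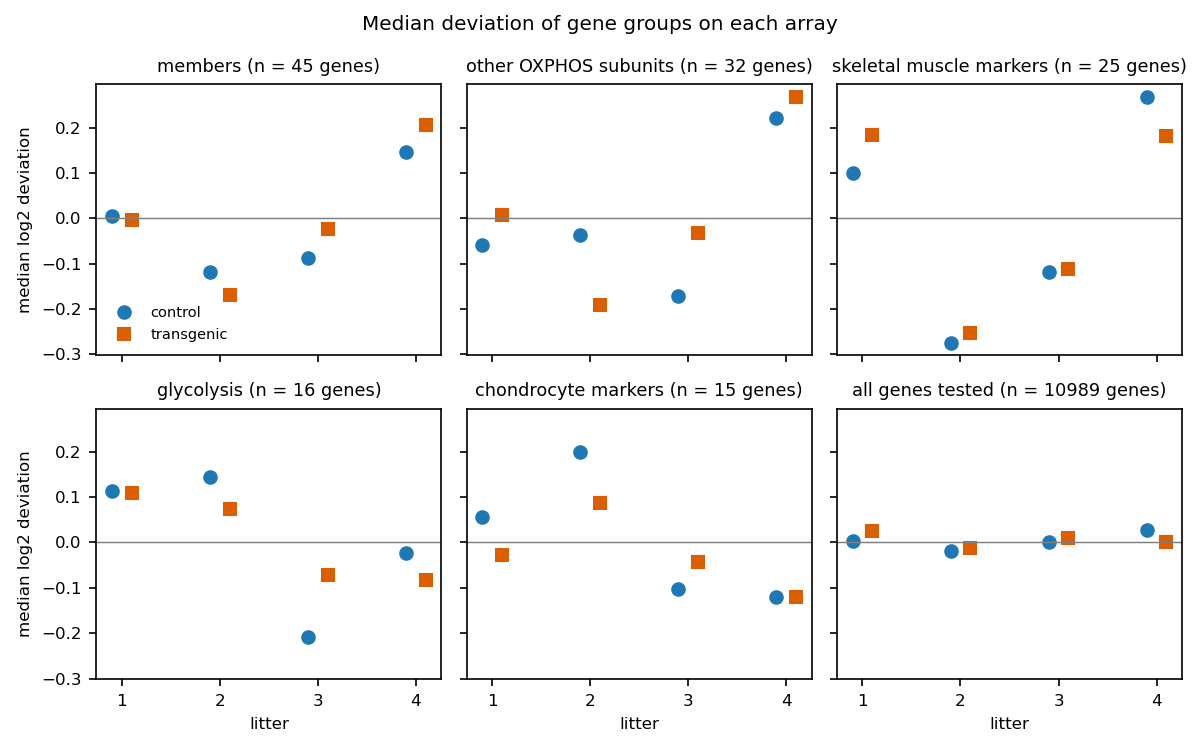
Median log2 deviation from each gene's mean on each array for 6 groups of genes, with litters on the x axis, circles for control and squares for transgenic samples. The 45 subunit genes (members) and the other subunits are highest in litter 4, muscle markers are high in litters 1 and 4, chondrocyte markers are highest in litter 2, and all genes together stay within 0.03 of 0. Values are on the deposited scaling, and after quantile normalization the chondrocyte markers are no longer highest in litter 2.

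The genes of a second list of nuclear oxidative phosphorylation subunits were also mostly highest in litter 4. Of its 32 tested genes 28 were highest in litter 4, both arrays of litter 4 were above the rest for 24, and the litter test called 8. Uqcr11, a small subunit of complex III, gave 4356, 4241, 4057 and 6408 in control litters 1 to 4 and 5009, 3980, 4480 and 6427 in transgenic litters 1 to 4 (adjusted p = 0.00792 in limma). Ndufa12 of complex I had a litter range of 1.41-fold (adjusted p = 0.0195 in limma). By genotype, 0 of the 32 genes were called, with 19 higher and 13 lower in transgenic samples. The smallest genotype p values of that list belonged to Ndufs5 at 0.25 log2 (SE 0.17) and Ndufv3 at 0.13 log2 (SE 0.11), with adjusted p of 0.9999 in limma.

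Assembly factors were highest in litter 4 for 25 of 42 tested genes (59.5%), where 32.2% of all genes tested were. The litter test called 4 of the 42 (9.52%), close to the 9.91% of all genes tested that it called. Sdhaf4, which helps to assemble complex II, gave 2398, 2291, 2160 and 3485 in control litters 1 to 4 and 2717, 2247, 2242 and 3743 in transgenic litters 1 to 4 (adjusted p = 0.00485 in limma), and Ttc19, a complex III factor, was highest in litter 2 (adjusted p = 0.00965 in limma). By genotype, Coa5 was at -0.22 log2 (SE 0.10) and Atpaf2 at -0.33 log2 (SE 0.18), neither called. Regulators of mitochondrial biogenesis were highest in litter 4 for 4 of 18 tested genes (22.2%) and 1 was called (5.56%), both below the shares of all genes. The called gene was Pprc1, a coactivator related to PGC-1, which was lowest in litter 4 (adjusted p = 0.0093 in limma). Gabpb1 (adjusted p = 0.0682 in limma) came second, and Esrrb (0.43 log2, SE 0.27) and Ssbp1 (0.12 log2, SE 0.13) had the smallest genotype p of that list. Ppargc1a itself, which encodes PGC-1 alpha, was below the filter.

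Of the 16 citric acid cycle genes tested, 10 were highest in litter 4 and 4 were called by the litter test. Mdh2, the mitochondrial malate dehydrogenase, was the reverse of most subunits, with 7821, 9284, 8059 and 6617 in control litters 1 to 4 and 8836, 10102, 8780 and 7016 in transgenic litters 1 to 4 (adjusted p = 0.019 in limma). Ogdh, of the oxoglutarate dehydrogenase, was lowest in litter 4 too (adjusted p = 0.0304 in limma). Of the 6 nucleotide carriers and porins, 3 were highest in litter 4 and 0 were called, and Vdac3 (adjusted p = 0.0509) and Slc25a3 (adjusted p = 0.0988) had their smallest litter p in limma. By genotype Vdac1 was at -0.15 log2 (SE 0.11) and Vdac2 at -0.07 log2 (SE 0.10).

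Glycolysis genes were highest in litter 4 for 5 of 16 (31.25%), close to the 32.2% of all genes tested, and in litter 2 for 7. The litter test called 5 (31.25%), where it called 9.91% of all genes tested. After quantile normalization their median deviation was 0.07 and 0.07 log2 on the control and transgenic arrays of litter 2, below 0.12 and 0.11 log2 in litter 1. Slc2a1, the glucose transporter GLUT1, gave 10085, 12905, 7740 and 6703 in control litters 1 to 4 and 9715, 12583, 9317 and 8202 in transgenic litters 1 to 4 (adjusted p = 0.00514 in limma), and Hk2, a hexokinase, was highest in litter 2 (adjusted p = 0.00668 in limma). Eno3, the muscle enolase, at -0.16 log2 (SE 0.20) and Pdk1 at 0.10 log2 (SE 0.14) had the smallest genotype p of the glycolysis list. Of the genes of mitochondrial DNA only mt-Nd5, a core subunit of complex I, had a probe set with a single symbol. It gave 47575, 59786, 34688 and 40813 in control litters 1 to 4 and 47146, 50685, 29362 and 44202 in transgenic litters 1 to 4 (litter adjusted p = 0.00352 in limma). On the deposited scaling mt-Nd5 was highest in litter 2, where most nuclear subunit genes were lowest. Its deviation was 0.46 and 0.23 log2 on the control and transgenic arrays of litter 2 and 0.13 and 0.12 log2 on those of litter 1. After quantile normalization the litters were close, at 0.21 and 0.15 log2 in litter 2 and 0.15 and 0.17 log2 in litter 1.

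Complex IV has isoform pairs in which 1 member is used widely and the other in heart and skeletal muscle. Cox6a2 and Cox7a1 are the muscle isoforms, and Cox6a1 and Cox7a2 their widely used counterparts. Cox6a2 gave 335, 233, 286 and 435 in control litters 1 to 4 and 315, 269, 277 and 485 in transgenic litters 1 to 4. Cox7a1 gave 135, 92.3, 104 and 141 in control litters 1 to 4 and 103, 60.9, 88.0 and 191 in transgenic litters 1 to 4. Both muscle isoforms were highest in litter 4 and lowest in litter 2, with litter ranges of 1.77-fold and 1.91-fold. Cox7a1 had a mean signal of 114, close to the filter at 110. Its means in litters 1 to 4 were 119, 76.6, 95.9 and 166. It thus passed through its high arrays, so its rank in litter 4 and its muscle relation are not independent of the filter. Among the 43 subunit genes with means of at least 492, without both muscle isoforms, 32 were highest in litter 4. Both litter 4 arrays were above the rest for 24 of them. Among all genes that bright the shares were 34.8% and 17.1%.

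Cox6a1 gave 20330, 21581, 19418 and 19892 in control litters 1 to 4 and 19896, 18909, 21442 and 22332 in transgenic litters 1 to 4. Cox7a2 gave 25784, 29160, 23112 and 28689 in control litters 1 to 4 and 26641, 26222, 25753 and 31097 in transgenic litters 1 to 4. The arrays of litter 4 and the others overlapped for both genes, and their litter ranges were 1.05-fold and 1.22-fold.

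The mean log2 signal of the 25 tested muscle markers was compared with each of the 4 isoform genes over the 8 arrays by exact two-sided permutation, adjusted over the 4 relations. The 25 markers included Cox8b, itself a gene of a complex IV subunit, and the relations without it were not computed. For Cox6a2 Pearson's r was 0.872 (exact p = 0.00347, adjusted 0.0139) and Spearman's rho 0.905 (exact p = 0.00456, adjusted 0.0183). For Cox7a1 r was 0.839 (exact p = 0.00789, adjusted 0.0158) and rho 0.810 (exact p = 0.0218, adjusted 0.0436). For Cox6a1 r was 0.189 and rho 0.286 (exact p = 0.651 and 0.501, adjusted 0.651 and 0.501), and for Cox7a2 r was 0.369 and rho 0.381 (exact p = 0.368 and 0.360, adjusted 0.491 and 0.480). Without the 2 arrays farthest from the median of the muscle mean, control litter 4 and transgenic litter 2, r was 0.867 for Cox6a2 (exact adjusted p = 0.0556) and 0.755 for Cox7a1 (exact adjusted p = 0.133), and 0.0155 and 0.275 for Cox6a1 and Cox7a2. Without each litter in turn, which leaves 6 arrays, the adjusted exact p of Cox6a2 and Cox7a1 was between 0.05 and 0.170, with r of at least 0.714. Without transgenic litter 2 alone, r of Cox7a1 was 0.753 (exact adjusted p = 0.106). After quantile normalization r of Cox7a2 was 0.779 (exact adjusted p = 0.0254).

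The relation was not seen within litters, where differences of the muscle mean were small beside those between litters. Each rests on 1 array per genotype, so their signs cannot show whether the relation holds there. The transgenic minus control difference of the muscle mean was 0.05, -0.06, 0.0059 and -0.09 log2 in litters 1 to 4, and that of Cox6a2 was -0.08, 0.19, -0.04 and 0.15 log2, of the opposite sign in each litter. That of Cox7a1 was -0.32, -0.46, -0.19 and 0.39 log2, with the same sign as the muscle mean in litter 2 only. The litter means of the muscle mean were 9.57, 9.18, 9.34 and 9.69 log2 for litters 1 to 4, and arrays of 1 litter are not independent, so the permutation p values treat 4 litters as 8 arrays.

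**Figure D5:**
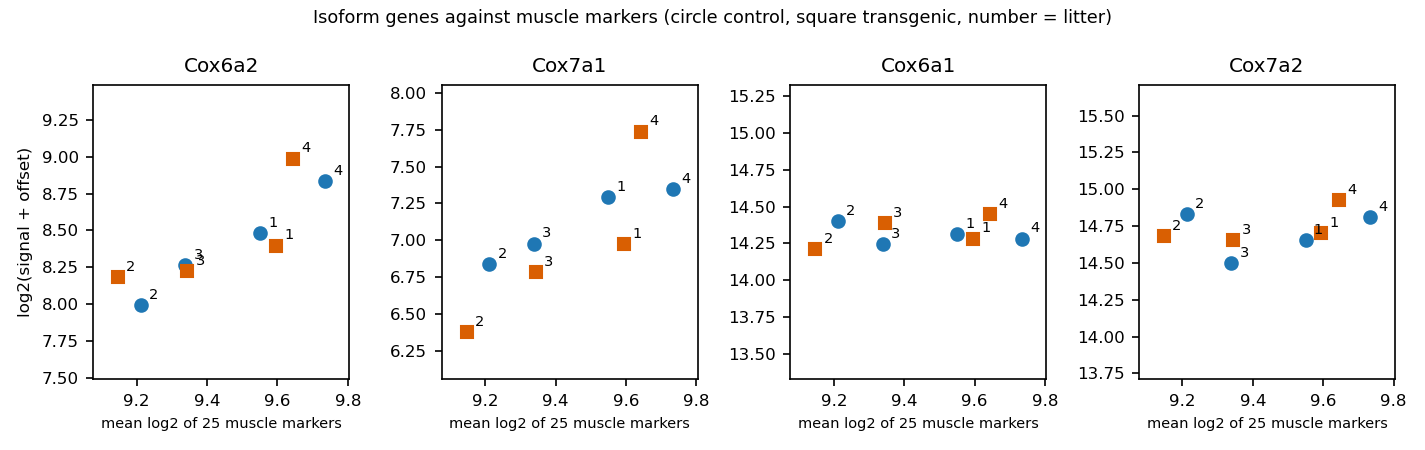
Log2 signal of 4 complex IV isoform genes against the mean log2 signal of 25 skeletal muscle markers on 8 arrays, with circles for control and squares for transgenic samples and the litter as a number. Each y axis spans 2 log2 units. The highest values of Cox6a2 and Cox7a1 are those of litter 4, where the muscle mean is high, and Cox6a1 stays nearly level.

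Promoter windows were looked up because many of the genes moved together across litters. Of the 45 genes 33 had a window in the RefSeq promoter table (GRCm38.p6), and the 250 bases before the start were used. Sequences are shown for Ndufa9, which had a litter difference, for Cycs, and for Cox6a1 and Cox7a1, a widely used and a muscle subunit of complex IV. They are written 5′ to 3′ along the gene's own strand, and capitals mark the matches to the motifs named after them. They lie at chr6:126849145-126849394 (minus strand), chr6:50566570-50566819 (minus strand), chr5:115348959-115349208 (minus strand) and chr7:30183921-30184170 (plus strand).
Ndufa9: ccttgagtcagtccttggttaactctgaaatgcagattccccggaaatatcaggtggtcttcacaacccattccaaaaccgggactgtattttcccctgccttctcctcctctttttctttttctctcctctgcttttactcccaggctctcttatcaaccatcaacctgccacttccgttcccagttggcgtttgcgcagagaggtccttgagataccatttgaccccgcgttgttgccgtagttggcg
Cycs: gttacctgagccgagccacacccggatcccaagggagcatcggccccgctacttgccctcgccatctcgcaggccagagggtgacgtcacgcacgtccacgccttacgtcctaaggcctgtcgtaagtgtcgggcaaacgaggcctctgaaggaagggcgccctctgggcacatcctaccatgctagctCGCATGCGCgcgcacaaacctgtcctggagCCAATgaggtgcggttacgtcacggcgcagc
Cox6a1: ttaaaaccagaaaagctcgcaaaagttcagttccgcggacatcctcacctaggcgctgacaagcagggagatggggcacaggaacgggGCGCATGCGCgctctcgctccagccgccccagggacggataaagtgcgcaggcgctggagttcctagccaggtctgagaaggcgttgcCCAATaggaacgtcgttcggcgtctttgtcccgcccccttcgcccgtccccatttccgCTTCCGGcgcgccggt
Cox7a1: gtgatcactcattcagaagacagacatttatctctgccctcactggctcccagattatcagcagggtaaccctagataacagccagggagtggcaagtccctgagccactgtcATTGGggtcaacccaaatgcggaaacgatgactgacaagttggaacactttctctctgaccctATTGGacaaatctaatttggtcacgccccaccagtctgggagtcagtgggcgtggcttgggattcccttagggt

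The motifs were searched on both strands. GCGCATGCG, a site of nuclear respiratory factor 1 (NRF1), a known activator of respiratory chain genes, stood in 3 of 33 windows (Cox6a1, Cycs and Ndufa8), where 1.49% of 27025 windows of the table held it. CCGGAAG, a site of the ETS class that includes GABPA, stood in 4 of 33 (Cox6a1, Ndufb6, Ndufs3 and Sdhd), where 7.05% of all windows held it. CCAAT, the site of NF-Y, stood in 12 of 33 (36.4%), where 34.5% of all windows held it. TCAAGGTCA, a site of the oestrogen-related receptors, stood in 0 of 33, where 0.366% of all windows held it. In Cox6a1 the NRF1 letters matched on both strands at overlapping positions, which start 162 and 161 bases before the gene's start. Ndufa9 held none of the 4 motifs in this window. Cox7a2, the widely used counterpart of Cox7a1, held none of them either, and its sequence is not shown. A match or its absence is a description of letters only.

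Many of the genes have more than 1 probe set, and these allow a look at the same transcript with other probes. The 45 genes had 98 probe sets, 83 of them tested, of which 20 (24.1%) were called by the litter test. It called 9.00% of all tested probe sets and 15.0% of the 11260 brightest. In 25 genes with several tested probe sets, all probe sets had litter 4 as the highest in 16, the litter call differed between probe sets in 7, and the sign of the genotype difference was mixed in 11. For Ndufa5, Ndufb9 and Ndufc1 both probe sets were called by the litter test (adjusted p between 0.0215 and 0.0366 in limma). Of 6 Ndufs8 probe sets 3 were called, though not the brightest. Of the 2 Cox6c probe sets the dimmer one was highest in litter 3 and not called (adjusted p = 0.0797 in limma). Genes of oxidative phosphorylation have many processed pseudogenes, and probe sets with an s or x suffix can bind related transcripts, as for Uqcrq and Atp5c1.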

How the data were processed

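RNA of 8 samples was measured on Affymetrix arrays. Per the submitters' processing notes the authors deposited MAS5 intensity values, linear in scale, for each probe set of each array. The MAS5 version is not stated. The trimmed mean (2% at each end) was 500 on every array, so arrays had been scaled before deposit. Detection calls were not used here.

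Of 45101 probe sets, 64 Affymetrix controls were left out of tests. Genes were named through the platform annotation from the 34945 probe sets with 1 symbol, and all 45 symbols were found in the RefSeq gene table. Signals were taken as log2(signal + 22.2), with the 20th percentile over all values as the offset. The brighter part of the probe sets, with means from 110 (their median) upwards, was tested, 22519 in number. Genotypes and litters were compared with limma 3.58.1 in R 4.3.3 (lmFit, eBayes with trend, two-sided, Benjamini-Hochberg, threshold 0.05), the litter F-test having 3 degrees of freedom. Scripts were tested on simulated data.

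Replicate numbers mark litters in the labels, so they pair the samples. Deviations of same-numbered arrays correlated at 0.0251, 0.434, 0.376 and 0.379 for litters 1 to 4. The highest correlation of each control array with a transgenic array of another litter was 0.0630, 0.0133, 0.0303 and 0.00416. For litter 1 the pairing is therefore not seen in the values and rests on the labels. The members and lists were chosen with earlier results of these data known. Genes were named by rule: in each complex the largest positive and most negative genotype difference, the 8 smallest litter p values, both isoform pairs, Cycs, all called genes, and in other lists the 2 smallest genotype and litter p values. Markers beside those of muscle and chondrocytes are given mainly as counts, and the brown adipocyte genes named were chosen after their values were seen. Alternatives were other offsets, filters, scalings, eBayes settings and probe set choices, the litter block, and leaving out each array or litter.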

Additional observations from a re-analysis of the deposited data

Results flagged for a closer look

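Among the signals of the 19 named subunit genes in each group of 4 arrays (38 sets of values), 4 held 1 sample far from the other 3, and all 4 samples were of litter 4. Chance flags about 1 in 20 sets where genes are not chosen by their values, but 3 of these 4 genes (Ndufa6, Cox6c and Atp5c1) were named for their litter difference, so the number of flags cannot be read against that share. Ndufa6 was 6396 in transgenic litter 4, and the nearest of the other transgenic samples was at 4958. Cox6c was 14900 in control litter 4, beside 10798 in the nearest control sample. Cox7a2 was 31097 in transgenic litter 4, beside 26641. Atp5c1 was 15634 in control litter 4, beside 12210. The samples share their litter and arrays, so the 4 flags are not independent of each other or of the litter counts above.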

How the results depend on the processing

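The genotype comparison called 0 probe sets and 0 of the 45 genes under every alternative, the replicate block included, which left the median difference at 0.0025 log2 and changed no call. Leaving out arrays or litters moved that median between -0.074 and 0.062 log2 and the number of genes higher in transgenic samples between 7 and 38. It moved the difference of Sdhb between -0.11 and 0.17, of Cycs between -0.089 and 0.065, of Cox6a2 between -0.13 and 0.20, of Uqcrq between -0.013 and 0.26, of Ndufs8 between -0.21 and 0.0019, of Cox7a1 between -0.40 and 0.051 and of Atp5a1 between -0.10 and 0.023 log2, so these signs are not settled. After quantile normalization Sdhb was at -0.0079 and Cycs at -0.0043 log2, and as the mean of all probe sets Atp5a1 was at 0.023 log2.

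The litter test called 995 probe sets and 3 of the 45 genes with no filter, 16 genes with the stricter filter (fewer probe sets tested), 18 with median centring, 14 with the mean of all probe sets, and 0 probe sets and 0 genes in eBayes without trend (limma, smallest adjusted p 0.0865 over all probe sets and 0.125 among the 45 genes). Leaving out arrays or litters gave 546 to 3047 probe sets and 0 to 17 genes. The cause of these shifts was not tested. The rank counts, added after seeing the data, moved less: over all alternatives that keep the litter, 31 to 37 genes were highest in litter 4, 23 to 40 were lowest in litter 2, and 22 to 32 had both litter 4 arrays above the rest.

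For the muscle relation, leaving out arrays or litters gave r from 0.826 to 0.932 for Cox6a2, from 0.714 to 0.896 for Cox7a1, from -0.173 to 0.428 for Cox6a1 and from -0.181 to 0.798 for Cox7a2. Quantile normalization gave 0.779 for Cox7a2. With 4 arrays a group and no scanner images, precision is limited by the number of arrays.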
